A study of Mus musculus with 6 samples.

Results

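The growth hormone axis of the mouse liver was examined through 10 genes: the growth hormone receptor Ghr, the signal transducer Stat5b, the feedback inhibitor Socs2, the repressor Bcl6, the secreted proteins Igf1 and Igfals, and the male-biased targets Elovl3, Mup3, Mup5 and Mup20. They were represented by every non-control probe whose accession RefSeq assigns to 1 of these symbols, which gave 18 probes of 55681 on the array. All 18 passed the filter on dim probes. Each gene was tested by its brightest probe, so the members were 10 of 20658 features tested.

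The livers were those of male Apoe-deficient mice (no apolipoprotein E) with a C57BL/6J background, whose ages are not given in the sources used here. The squalene group (10 mice) ate a Western diet, rich in refined palm oil (20%) and with 0.15% cholesterol, to which 1% squalene was added, which the submitters equate to 1 g/kg, for 11 weeks. The Western group (9 mice) ate the same diet without squalene. Both groups carried the Apoe deletion and the fatty diet, so no mouse with Apoe or on ordinary chow enters any comparison. Per diet, 4 RNA pools of 2 or 3 animals were made, and each 2-colour array carried 1 squalene pool and 1 Western pool. The 6 arrays held 4 pool pairs. Squalene was labelled with Cy5 in pairs 1 and 4 and with Cy3 in pairs 2 and 3, and pairs 1 and 2 were repeated on a second slide. Pooling leaves the spread between animals of a pool unseen, and a replicate here is a pool pair (n = 4).

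Growth hormone from the pituitary binds its receptor on hepatocytes and activates the kinase JAK2, which phosphorylates STAT5b. Paired STAT5b molecules enter the nucleus and bind DNA at the palindrome TTCNNNGAA, where they switch on Igf1, Igfals and the feedback inhibitors Socs2 and Cish. Male rodents release the hormone in separate pulses and females more evenly, and this pattern sets much of the sex difference of liver transcripts, including the male-biased major urinary proteins. BCL6 is a repressor that can occupy the same sites as STAT5, and growth hormone lowers Bcl6 in mouse liver.

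Values are log2 ratios of squalene over Western, in which 1 stands for a 2-fold higher level with squalene, and levels are log2 intensities of a pool in its own channel. In no feature did the diets differ at an adjusted p under 0.05 (0 of 20658 features, 0% by limma and Benjamini-Hochberg). The unadjusted p was under 0.05 for 510 of them, or 2.47%, with 1.05% higher and 1.42% lower. The ratio had 1 sign in all 4 pairs in 6.38% of features (3.34% higher, 3.04% lower), and the pool levels of the diets did not overlap in 0.77% of them. The fit estimates a term for the dye orientation beside the diet effect, so its SE leaves out any difference between the orientations; the SD over the 4 pairs holds it. With 4 pairs an exact two-sided sign-flip permutation test cannot go below p = 0.125. The submitters call the pools biological replicates, and p-values measure the spread between pool pairs, not between single animals. In RNA of whole liver, fewer cells of a type and less RNA per cell cannot be told apart. The hepatocyte markers were all measured (14 of 14, among them Alb and Ttr), at a mean level of 16.13 to 16.34 in squalene pools and 16.06 to 16.32 in Western pools.

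Bcl6 was higher with squalene in all 4 pool pairs, by 2.40-fold on average, and was the only member of which this held. Socs2 and Elovl3 swung between pairs, each strongly below 0 in pair 3. By their brightest probes, the ratios of Ghr, Igf1 and Igfals lay between -0.43 and 0.32 in every pair. Other probes reached 0.59 for Ghr and 0.35 for Igf1, both in pair 3. Of the 10 members, 1 (Bcl6) was past an unadjusted p of 0.05 and 0 were past the adjusted threshold (limma, Benjamini-Hochberg), against 2.47% and 0% of all features. The members' median ratio was -0.049, beside 0.0028 over all features, and 3 members were above and 7 below 0, against 51.8% and 48.2% of all features. Of the members, 9 of 10 had an SD above the median over features (0.16), and 5, namely Socs2, Elovl3, Bcl6, Mup5 and Mup20, stood in the top 2% of all features. High spread was shared by some other lists. The median SD was 0.56 over the members, 0.57 over the male-biased genes, 0.48 over clock genes and 0.45 over hepatocyte markers. It was 0.53 over Kupffer cell markers and 0.80 over red cell genes. The Mup family stood at 0.71, stellate cell markers at 0.48 and the listed transcription factors at 0.47. Markers of lipid-laden macrophages had 0.43, female-biased genes 0.40 and genes responsive to the xenobiotic receptors CAR and PXR 0.39. The median SD was lower over other lists, at 0.23 for growth hormone and IGF signalling and 0.34 for feedback inhibitors. For lymphocyte, endothelial and cholangiocyte markers it was 0.33, 0.22 and 0.21. Repeat arrays, which exist for pairs 1 and 2, had a technical SD of 0.063 for the median feature and of 0.013 to 0.067 for the members' brightest probes.

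**Figure D1:**
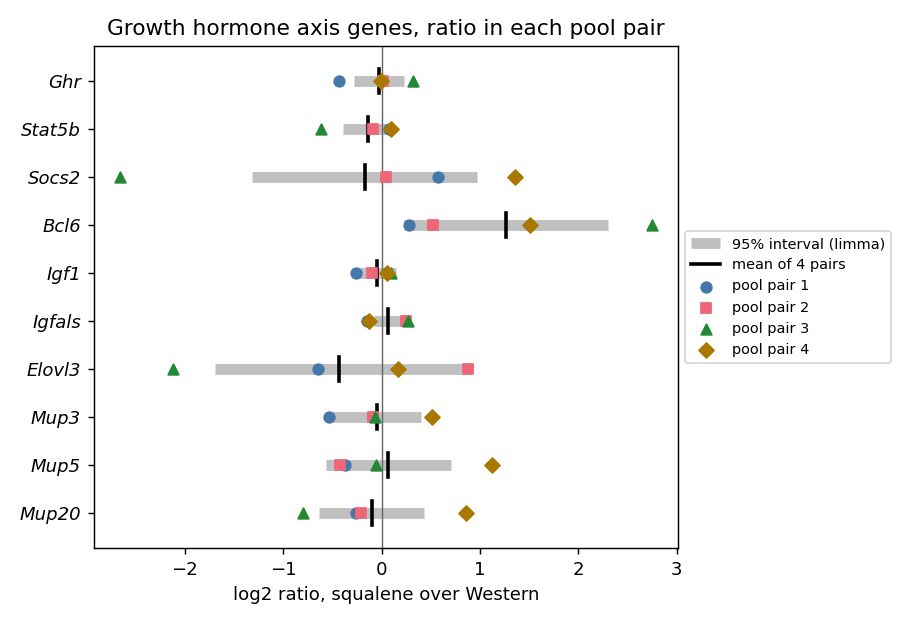
Log2 ratio of squalene over Western (x axis) for each of the 10 genes (rows), with 1 marker per pool pair, a black bar at the mean and a grey bar for limma's 95% interval. Bcl6 has all 4 pairs above 0, from 0.28 to 2.74, and Socs2 spans from -2.66 to 1.36.

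Ghr, the cell surface receptor, had levels of 13.30, 13.84, 13.73 and 13.78 in squalene pools of pairs 1 to 4, against 13.73, 13.83, 13.41 and 13.79 in Western pools. The diets overlapped: the squalene pool of pair 1 was the lowest of all 8 pools and the Western pool of pair 3 the next. Its ratios were -0.43, 0.011, 0.32 and -0.0074, with a mean of -0.028 ± 0.31 (SD, n = 4) and a limma 95% interval from -0.28 to 0.22. A second Ghr probe, made for another transcript accession, read -0.28, 0.069, 0.59 and -0.23, so the probes shared the low value of pair 1 and the high value of pair 3 but not the sign of the mean (0.037 for the second). In both probes the pairs with squalene in Cy5 were below 0 and those with squalene in Cy3 above it. For the brightest probe the orientation means were -0.22 with squalene in Cy5 and 0.17 in Cy3, a difference that the interval leaves out.

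Stat5b, which carries the receptor's signal to the nucleus, had levels of 11.20, 10.80, 10.698 and 11.04 in squalene pools and 11.12, 10.89, 11.32 and 10.94 in Western pools. The diets overlapped, and pair 3 held both the lowest squalene and the highest Western level. Its ratios were 0.073, -0.088, -0.62 and 0.097, averaging -0.13 ± 0.33 (SD, n = 4; limma 95% interval -0.39 to 0.12). The second Stat5b probe averaged -0.17 ± 0.15 (SD, n = 4) and was also lowest in pair 3, at -0.36. Without pair 3 the fitted Stat5b ratio was -0.0013 and the plain mean of the other 3 pairs 0.027. On 3 pairs the fit, which has a dye term, gives the pair left alone in its orientation as much weight as the other 2 together, so both values are given.

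Socs2, the STAT5-induced protein that tags the growth hormone receptor for degradation, was the most variable member. Its levels were 11.01, 9.81, 8.35 and 10.63 in squalene pools of pairs 1 to 4, against 10.44, 9.77, 11.00 and 9.27 in Western pools. The squalene pool of pair 3 was the lowest of all 8 pools and the squalene pool of pair 1 the highest, so the diets overlapped over nearly the whole range. The ratios were 0.57, 0.045, -2.66 and 1.36, a mean of -0.17 ± 1.74 (SD, n = 4). Among all features 99.98% had an SD no larger than that. The limma 95% interval ran from -1.31 to 0.97, so neither a lower nor a higher level was shown. Without pair 3 the fitted ratio was 0.51 (limma on 3 pairs, unadjusted p = 0.0414, Benjamini-Hochberg adjusted p = 1.00), and without pair 2 it was -0.84. The plain mean of the remaining 3 pairs was 0.66 without pair 3 and below 0 otherwise, at -0.42 without pair 1, -0.24 without pair 2 and -0.68 without pair 4.

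The 3 Socs2 probes gave the same pattern over the pairs. The brightest Socs2 probe was printed 10 times on each array, and in pair 3 its 10 spots lay between -2.82 and -2.55. In pair 4 they lay between 1.22 and 1.48. In pair 2 they had both signs, from -0.090 to 0.17 on slide 1 and from -0.073 to 0.13 on slide 2. The other Socs2 probes read 0.43, 0.16, -2.23 and 1.07 and 0.34, 0.12, -2.02 and 1.01. All 3 probes put the pairs in the same order, pair 4 highest and pair 3 lowest. Repeat arrays of pair 1 gave 0.59 on slide 1 and 0.56 on slide 2, and those of pair 2 gave 0.037 and 0.053. Pairs 3 and 4, the extremes, were hybridised once each. The mean was 0.97 over the pairs with squalene in Cy5 and -1.31 over those with squalene in Cy3, though within each orientation the pairs differed as well.

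**Figure D2:**
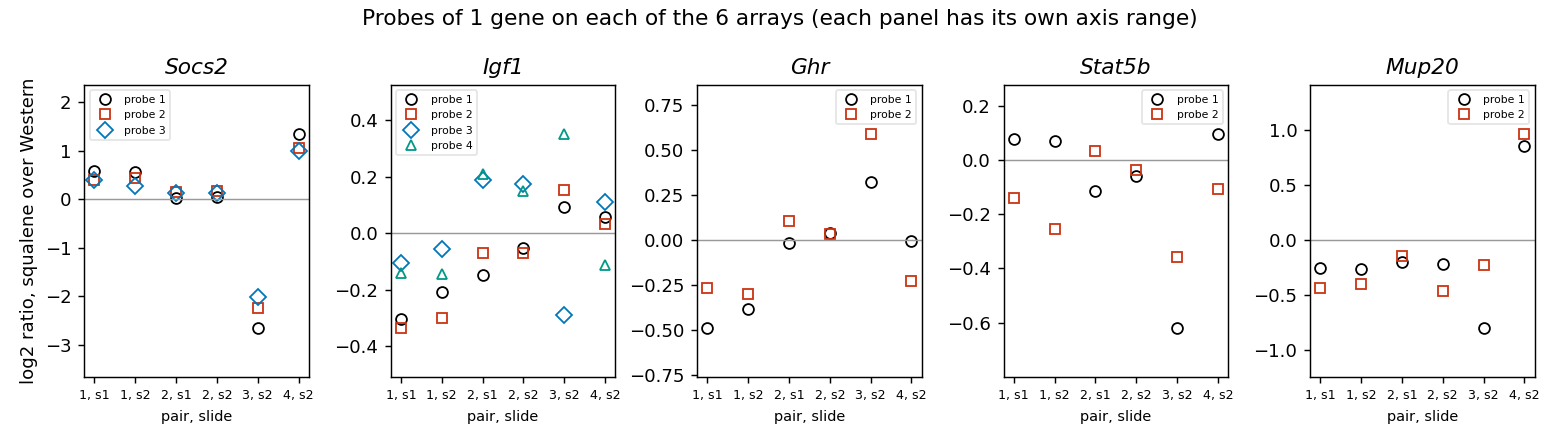
Log2 ratio of squalene over Western (y axis) on each of the 6 arrays (x axis, pool pair and slide) for each probe of the 5 genes with several probes, 1 symbol per probe and 1 axis range per panel. The 3 Socs2 probes fall together on every array, near -2.02 to -2.66 in pair 3, while the 4 Igf1 probes have both signs there.

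Genes with a known response to growth hormone were among those whose pair ratios lay closest to Socs2. The 5 features with a symbol nearest to Socs2, by root mean square difference of the 4 pair ratios, were Tubb2a (0.59), Onecut1 (0.65), Cish (0.66), Ccl2 (0.69) and Prlr (0.71). Cish, another STAT5-induced inhibitor of cytokine receptors, read -0.25, 0.77, -2.88 and 0.67 in pairs 1 to 4. Onecut1, the liver transcription factor HNF6 that growth hormone induces, read 0.52, 0.23, -1.56 and 0.69 in pairs 1 to 4. Prlr, the prolactin receptor, read 0.54, 0.021, -1.63 and 0.39 in pairs 1 to 4. All 3 were at their lowest in pair 3, as was Socs2. Tubb2a, a tubulin, read 0.63, 0.74, -2.32 and 0.46 in pairs 1 to 4, and Ccl2, a monocyte chemokine, read 0.82, -0.34, -1.56 and 0.67 in pairs 1 to 4. These likenesses rest on 4 pairs, with the largest values in pair 3, and are a description without a test.

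**Figure D3:**
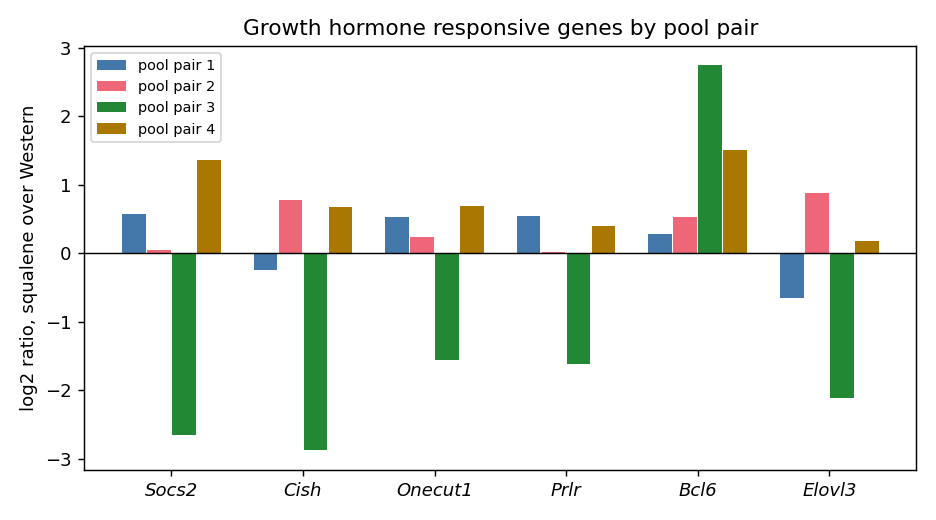
Log2 ratio of squalene over Western (y axis) in pool pairs 1 to 4 (bars, left to right) for Socs2, 3 of the features nearest to it, Bcl6 and Elovl3. In pair 3 Socs2, Cish, Onecut1, Prlr and Elovl3 lie between -1.56 and -2.88, and Bcl6 is at 2.74.

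Bcl6, the repressor that shares sites with STAT5, was the member that separated the diets. Its levels were 11.71, 11.72, 12.54 and 11.91 in squalene pools of pairs 1 to 4, against 11.44, 11.19, 9.80 and 10.41 in Western pools. Every squalene pool was above every Western pool, a separation seen in 0.77% of all features. The Western pools spread more widely, the lowest being that of pair 3. The ratios were 0.28, 0.52, 2.74 and 1.504, with a mean of 1.26 ± 1.12 (SD, n = 4; SE 0.40), that is 2.40-fold with a limma 95% interval from 1.17- to 4.91-fold. The limma test gave an unadjusted p of 0.0257 and a Benjamini-Hochberg adjusted p of 1.00, and the exact sign-flip permutation test gave p = 0.125, the smallest it allows. The difference therefore did not pass correction over all features. Pairs 3 and 4 had the highest ratios: without pair 3 the fitted ratio was 0.71 (limma on 3 pairs, unadjusted p = 0.0505, adjusted p = 1.00) and without pair 4 it was 0.95 (limma on 3 pairs, unadjusted p = 0.112, adjusted p = 1.00). The plain means of the remaining pairs were 0.77 without pair 3 and 1.18 without pair 4. A single probe and spot stood for Bcl6, and its repeat arrays gave 0.32 and 0.23 in pair 1 and 0.48 and 0.56 in pair 2.

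Bcl6 and Socs2 lay on opposite sides of 0 in pair 3 alone. In pair 3 Bcl6 was at its highest ratio and Socs2 and Cish at their lowest. In pair 4 Bcl6 (1.504), Socs2 (1.36) and Cish (0.67) were all above 0. Bcl6 and Socs2 were also both above 0 in pair 1 (0.28 and 0.57) and pair 2 (0.52 and 0.045). Cish read -0.25 and 0.77 in those pairs. The features nearest to Bcl6 by the same measure were Noct (0.69), Cyp2b9 (0.71), Slco1a4 (0.74), Moxd1 (0.74) and Cyp2c38 (0.80). Noct, the rhythmically expressed nocturnin, read -0.13, -0.19, 1.64 and 1.31 in pairs 1 to 4, and the male-biased Moxd1 read -0.51, -0.015, 2.15 and 2.48 in pairs 1 to 4. Cyp2b9 and Cyp2c38 are cytochrome P450 enzymes of families that the xenobiotic receptors CAR and PXR induce, and Slco1a4 is an organic anion transporter. In pairs 1 to 4 Cyp2b9 read 1.17, 0.95, 1.81 and 1.93, and Cyp2c38 read 1.16, 1.64, 2.05 and 1.24. Slco1a4 read 0.58, 0.030, 1.46 and 1.07 in pairs 1 to 4. Their SDs over the pairs were 0.48, 0.41 and 0.62, against 1.12 for Bcl6. The measure takes in the mean ratio as well as the pattern over pairs, and these likenesses too are a description without a test. In a list of 22 genes responsive to CAR and PXR 21 were measured, 20 of them above 0, with a median of 0.57. At an unadjusted p under 0.05 in limma 15 were higher and 0 lower, against 1.05% and 1.42% of all features. This list, like the others here, was chosen with earlier results of these data known, so these counts describe it and do not test it.

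The start regions of Bcl6 and Cish are shown because these genes took opposite values in pair 3 and both hold the letters of the STAT5 palindrome; an Igfals window is shown as that of the other member with a match. Start regions (250 bases before to 50 after an annotated start, RefSeq, GRCm38.p6) were available for 6 of the 10 members, in 11 windows. TTCNNNGAA, which reads the same on both strands, was found in 4 of the 11 windows, belonging to Bcl6 and Igfals. It was found in 8.30% of all 32851 windows. A Bcl6 window with 3 matches, beginning at positions -168, -122 and -88 from the start, belongs to a group of 11 windows, or 0.0335% of all, with at least 3. The matches do not overlap each other. A match describes letters and is not evidence of binding in these livers. No match was in the windows of Ghr, Igf1, Stat5b or Mup3; Socs2, Elovl3, Mup5 and Mup20 had no window in the table. In the sequences, written 5′ to 3′ along the gene, capitals mark the palindrome.
Bcl6, chr16:23981234-23981533, minus strand: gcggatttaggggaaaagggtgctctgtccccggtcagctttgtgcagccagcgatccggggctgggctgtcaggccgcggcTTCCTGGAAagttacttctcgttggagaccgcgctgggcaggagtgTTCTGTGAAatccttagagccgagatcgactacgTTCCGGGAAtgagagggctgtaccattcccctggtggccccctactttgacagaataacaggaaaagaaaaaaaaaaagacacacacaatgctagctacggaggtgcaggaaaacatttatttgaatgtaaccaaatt
Bcl6, chr16:23988803-23989102, minus strand: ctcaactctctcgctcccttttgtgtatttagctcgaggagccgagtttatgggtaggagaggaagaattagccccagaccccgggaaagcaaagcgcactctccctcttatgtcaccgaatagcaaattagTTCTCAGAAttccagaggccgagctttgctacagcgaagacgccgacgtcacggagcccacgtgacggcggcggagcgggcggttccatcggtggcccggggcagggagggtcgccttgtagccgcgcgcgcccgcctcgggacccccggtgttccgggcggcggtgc
Cish, chr9:107296409-107296708, plus strand: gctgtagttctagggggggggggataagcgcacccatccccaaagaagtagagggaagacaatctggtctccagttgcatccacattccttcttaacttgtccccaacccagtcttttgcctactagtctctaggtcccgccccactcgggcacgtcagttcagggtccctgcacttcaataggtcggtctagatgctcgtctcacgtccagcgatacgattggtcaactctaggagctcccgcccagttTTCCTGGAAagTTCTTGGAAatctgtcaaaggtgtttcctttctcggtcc
Igfals, chr17:24877981-24878280, plus strand: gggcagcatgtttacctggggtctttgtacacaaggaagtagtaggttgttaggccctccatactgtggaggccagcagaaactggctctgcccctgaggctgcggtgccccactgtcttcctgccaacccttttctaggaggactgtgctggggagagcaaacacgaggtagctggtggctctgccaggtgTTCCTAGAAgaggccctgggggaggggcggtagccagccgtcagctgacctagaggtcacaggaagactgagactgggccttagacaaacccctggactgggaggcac

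The secreted members had mean ratios near 0, with limma intervals that leave out any difference between the dye orientations. Igf1, which encodes a hormone that the liver secretes, had levels of 13.91, 14.16, 14.29 and 14.36 in squalene pools and 14.17, 14.26, 14.20 and 14.31 in Western pools. The diets overlapped, and the Western pools lay closer together. Its ratios were -0.26, -0.099, 0.092 and 0.056, averaging -0.052 ± 0.16 (SD, n = 4), and the limma 95% interval, -0.25 to 0.15, corresponds to 0.84- to 1.11-fold. The 4 Igf1 probes averaged -0.052, -0.051, -0.019 and 0.069, and in pair 3 they read 0.092, 0.15, -0.29 and 0.35. The third probe thus had the opposite sign to the others in that pair.

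Igfals encodes the acid-labile subunit that holds IGF1 in the circulation. The Igfals start window shown above carries a palindrome at -58, another window carries 1 at -236, and a further window carries none. Igfals levels were 9.92, 10.73, 10.49 and 10.50 in squalene pools and 10.07, 10.49, 10.21 and 10.63 in Western pools, which overlapped. The ratios were -0.14, 0.25, 0.27 and -0.13. They followed the dye orientation: both pairs with squalene in Cy5 were below 0 and both with squalene in Cy3 above it. The mean was 0.060 ± 0.23 (SD, n = 4), with a limma 95% interval from -0.075 to 0.19. This interval leaves out the difference between the orientations, whose means were -0.14 with squalene in Cy5 and 0.26 in Cy3. In limma the unadjusted p was 0.30 with the dye term and 0.56 without it.

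**Figure D4:**
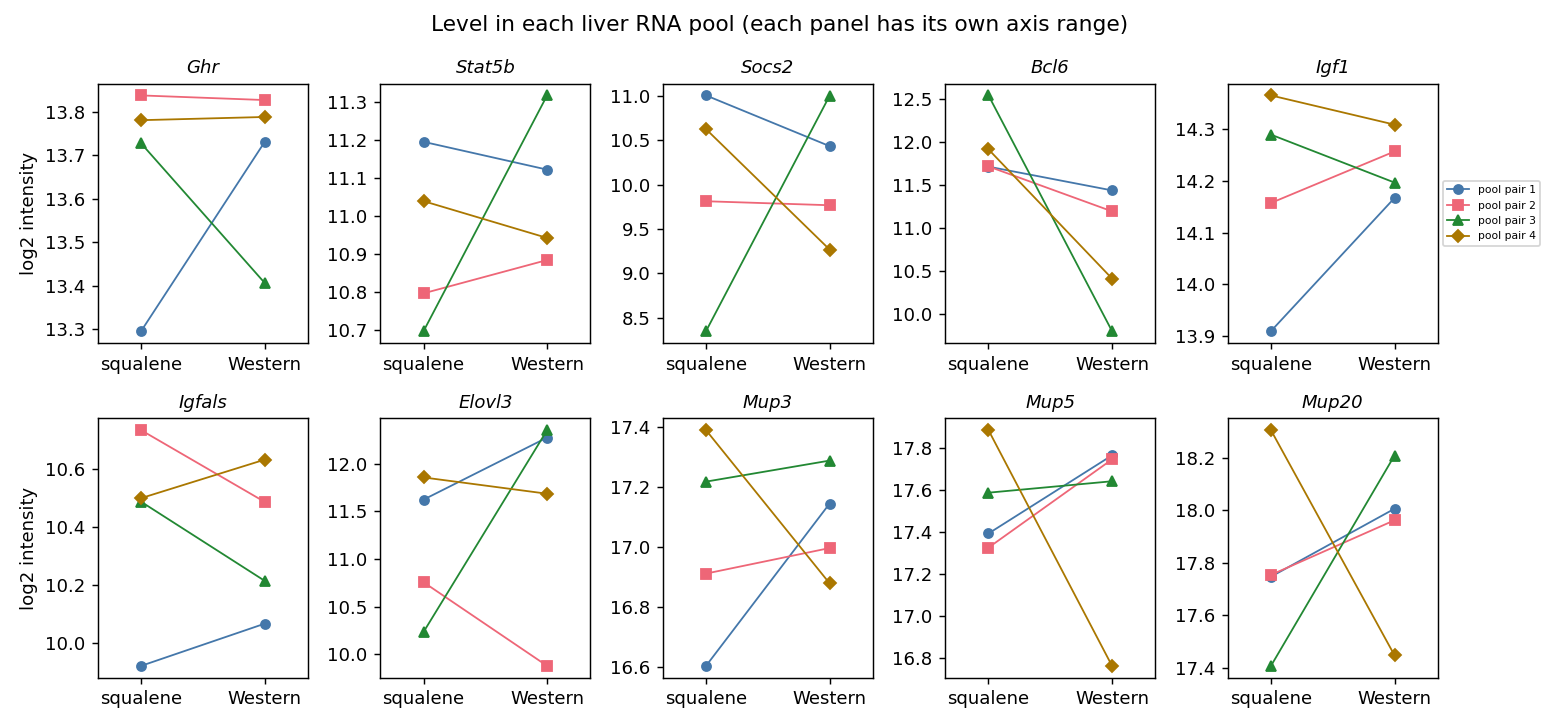
Log2 intensity (y axis, its own range in each panel) of the 10 genes in each squalene pool (left) and the Western pool it was hybridised with (right), joined by pool pair. The Bcl6 lines all run down to the right with no overlap between diets, and the Socs2 and Elovl3 lines cross.

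The male-biased members had no common direction. Elovl3, a fatty acid elongase with higher expression in male liver, had levels of 11.62, 10.76, 10.24 and 11.86 in squalene pools and 12.27, 9.88, 12.35 and 11.69 in Western pools. The lowest of all was the Western pool of pair 2 and the next the squalene pool of pair 3. Its ratios were -0.65, 0.88, -2.12 and 0.17; repeat arrays of pair 1 gave -0.67 and -0.64. The fitted ratio was 0.32 without pair 3 and -1.18 without pair 2 (plain means 0.13 and -0.87), against -0.43 over all 4 (limma 95% interval -1.69 to 0.83).

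Major urinary proteins are pheromone carriers that male mouse liver secretes in bulk. Mup3 had levels of 16.61, 16.91, 17.22 and 17.39 in squalene pools and 17.14, 17.00, 17.29 and 16.88 in Western pools. Mup5 had 17.39, 17.33, 17.59 and 17.89 in squalene pools and 17.77, 17.75, 17.64 and 16.76 in Western pools. Mup20, also called darcin, had 17.75, 17.75, 17.41 and 18.31 in squalene pools and 18.01, 17.96, 18.21 and 17.45 in Western pools. The diets overlapped in all 3, and in each of them pair 4 had the highest ratio, 0.51 for Mup3, 1.12 for Mup5 and 0.86 for Mup20. In pairs 1 to 3 their ratios were all below 0. The means were -0.046 ± 0.43 for Mup3, 0.069 ± 0.72 for Mup5 and -0.10 ± 0.69 for Mup20 (SD, n = 4), none past an unadjusted p of 0.05. A second Mup20 probe read -0.42, -0.31, -0.23 and 0.97, -0.23 in pair 3 against -0.80 for the first. Mup genes are near-identical copies, so a probe may read several of them and their values are not independent; no spot was saturated.

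Across the measured Mup family the sign went with the pair. All 10 measured genes were below 0 in pairs 1 and 2 (medians -0.62 and -0.24), 7 were above 0 in pair 3 (0.28) and all 10 in pair 4 (0.79). The median of the gene means was 0.054. The 3 genes below 0 in pair 3 were Mup3, Mup5 and Mup20. The smallest unadjusted p-values were those of Mup20, Mup18, Mup5 and Mup3, and 0 of 10 passed 0.05. Another 11 listed Mup genes matched no probe.

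The other genes of the axis gave few differences at an unadjusted p under 0.05. Of 26 listed genes of growth hormone and IGF signalling, 24 were measured, 9 above and 15 below 0, with a median of -0.034; 0 passed in either direction. Those with the smallest p were Stat5a, the close relative of Stat5b, at -0.15 ± 0.13, the IGF-binding proteins Igfbp7 at -0.11 ± 0.069 and Igfbp2 at 0.12 ± 0.16, and the adaptor Shc1 at -0.089 ± 0.075 (SD, n = 4). Igfbp1 was picked after its values were seen: this insulin-repressed IGF-binding protein had the largest spread of this list, at 0.023, -1.40, -1.05 and 1.67 in pairs 1 to 4. Of 16 feedback inhibitors, 15 were measured, 8 above and 7 below 0 (median 0.0014), and 1 passed, the receptor Sirpa at -0.28 ± 0.36. Socs5 at -0.14 ± 0.19, Socs3 at -0.30 ± 0.39 and the phosphatase Ptpn11 at 0.088 ± 0.14 followed (SD, n = 4). Sirpa read 0.25, -0.45, -0.58 and -0.31 in pairs 1 to 4. Its mean was -0.034 with squalene in Cy5 and -0.52 in Cy3, a difference that the fit's SE leaves out. Of 11 listed transcription factors, 10 were measured and Bcl6 alone passed; Trim24 at 0.19 ± 0.15, Tox at -0.22 ± 0.28 and Cebpa at 0.093 ± 0.49 came next (SD, n = 4). None of these passed adjustment over all features (limma, Benjamini-Hochberg; 0 of 24, 0 of 15 and 0 of 10).

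Many sex-biased liver genes depend on the hormone's secretion pattern. Of 46 listed male-biased genes, 34 were measured, the Mup family among them, 20 above and 14 below 0 (median 0.039). The sulfotransferase Sult5a1, at 0.21, 0.19, 0.32 and 0.30, was higher in all 4 pairs. It passed an unadjusted p of 0.05 in limma, with a Benjamini-Hochberg adjusted p of 1.00, and the other 33 did not pass. Moxd1 averaged 1.03 ± 1.51, Arhgef26 -0.085 ± 0.13 and Dnaic1 0.11 ± 0.19 (SD, n = 4). By pair, 6, 15, 23 and 25 of the 34 were above 0. In pair 1 the list's median was -0.52.

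Of 31 listed female-biased genes 20 were measured, 10 above and 10 below 0 (median 0.018). Cyp3a16, Cyp2b9 and Cyp3a41b, drug-metabolising enzymes of families that CAR and PXR also induce, passed an unadjusted p of 0.05, all higher, and 17 did not. Cyp3a16 averaged 0.80 ± 0.51, Cyp2b9 1.46 ± 0.48 and Cyp3a41b 0.74 ± 0.28 (SD, n = 4), and 0 of the 20 passed adjustment over all features (limma, Benjamini-Hochberg). In pair 1, 16 of the 20 were above 0, with a median of 0.41, against -0.084, 0.057 and -0.030 in pairs 2 to 4. The squalene pool of pair 1 thus read lower than its Western pool for most male-biased genes and higher for most female-biased genes.

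**Figure D5:**
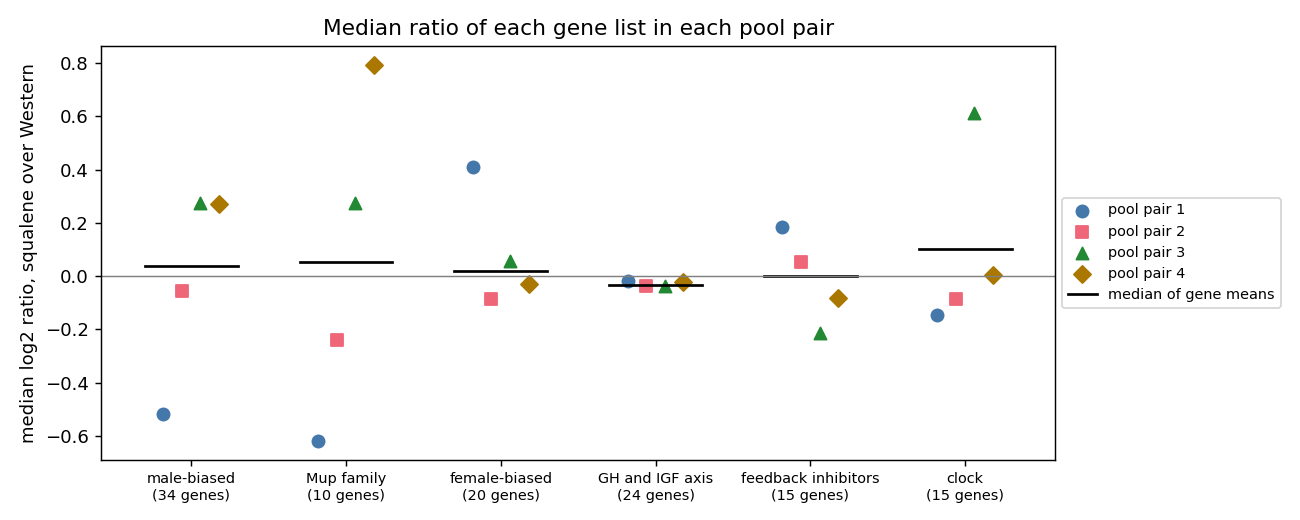
Median log2 ratio of squalene over Western (y axis) in each pool pair (symbols) for 6 gene lists (x axis), with a bar at the median of the gene means. The male-biased and Mup lists lie lowest in pair 1, at -0.52 and -0.62, and the clock list is highest in pair 3, at 0.61.

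Other gene lists also stood away from 0 in pair 3, where Socs2, Bcl6 and Elovl3 had their extreme ratios. Of 15 measured clock genes, 12 were above 0 in that pair (median 0.61), against 4, 6 and 8 in pairs 1, 2 and 4. Arntl and Dbp were picked after their values were seen. Arntl, the core clock activator, was at -2.07 in pair 3, and the clock outputs Dbp and Tef at 1.63 and 1.23. Over all 4 pairs Per1 averaged 0.28 ± 0.55, Nr1d1 0.10 ± 0.14, Tef 0.25 ± 0.67 and Per2 0.30 ± 0.69 (SD, n = 4), and 0 of 15 passed an unadjusted p of 0.05. Of the red cell genes 6 of 7 were below 0 in pair 3 (median -1.60), and of the Kupffer cell markers 10 of 10 (median -0.53). The mean level of the red cell list was 11.75 to 12.33 in squalene pools and 12.04 to 12.95 in Western pools. That of the Kupffer list was 11.82 to 12.72 in squalene pools and 11.78 to 12.52 in Western pools. In pair 4, where Socs2 was at its highest ratio, the Kupffer list was again below 0 in 10 of 10 (median -0.47). In pairs 1 and 2 the direction was the opposite, with 8 of 10 above 0 in each (medians 0.19 and 0.33). Endothelial markers were below 0 in 8 of 8 in pair 3, at a median of -0.24, and the hepatocyte markers had a median of -0.17. Over all 4 pairs, 7 of 7 red cell genes were below 0 (median -0.48, 4 past an unadjusted p of 0.05), as were 9 of 10 Kupffer cell markers (median -0.16, 0 past it) and 8 of 8 endothelial markers (median -0.051, 0 past it), while 12 of 14 hepatocyte markers were above 0 (median 0.051, 0 past it). Likewise 10 of 10 markers of lipid-laden macrophages were below 0 (median -0.29, 4 past an unadjusted p of 0.05 in limma). So were 9 of 11 stellate cell markers (median -0.24, 5 past it) and 4 of 4 measured cholangiocyte markers (median -0.11, 0 past it). Of 6 measured lymphocyte markers 5 were above and 1 below 0 (median 0.061, 1 past it, higher). Among all features 1.05% were past it higher and 1.42% lower. Red cell medians in pairs 1 to 4 were 0.017, -0.55, -1.60 and 0.13. Those of stellate cell markers were 0.11, -0.79, -0.39 and 0.12. Both medians were below 0 only in the pairs with squalene in Cy3, a difference that the fit's SE leaves out. In neither list did any gene have 1 sign in all 4 pairs. Medians of the lipid-laden macrophage markers were 0.26, -0.57, -0.68 and -0.14 in pairs 1 to 4. In pair 1, 7 of 10 of these markers were above 0, and 1 of 10 had 1 sign in all 4 pairs. Their medians were lowest in the pairs with squalene in Cy3, and the fit's SE leaves out this difference too. The part of all these cell types, and of the clock genes, in the ratios of Socs2, Bcl6 and Elovl3 was not tested.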

How the data were processed

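Liver RNA pools were hybridised to Agilent 2-colour arrays, and 6 arrays held 4 pool pairs. The deposited scanner files give spot and background intensity in both channels, which the file headers credit to Feature Extraction 10.7.3.1. A deposited value table of the authors holds log10 ratios; set against the scanner values, they are squalene over Western of unnormalised medians, and 2 unusable cells in each pair 1 column were left out. Median intensities were corrected with normexp (offset 50) and loess in limma 3.58.1 (R 4.3.3), with spot outliers removed and control spots at weight 0. Values were averaged first over a probe's spots and then over repeat arrays. Probes well above background in at least 3 of 4 pairs, in more than 0.5 of their spots, in the channel of at least 1 diet were kept (26854 of 55681). The brightest probe stood for a gene. Ratios were fitted with lmFit and eBayes, with squalene and dye terms, and adjusted by Benjamini-Hochberg over 20658 features. Levels per pool come from each channel after loess and Aquantile. Correlations between repeat arrays over features were 0.85 for pair 1 and 0.88 for pair 2. No spot was saturated, and the number of arrays limits the precision. Symbols and start regions are from RefSeq (GRCm38.p6). The fit was tested on simulated data. Members and lists were chosen with earlier results of these data known. All members are described; of each pathway list up to 4 genes with the smallest unadjusted p are named, and the 5 features nearest to the most variable member and to the member with the smallest p. A gene that this rule names is not reported here. Alternatives covered background correction, centring, dim-probe filter, probe choice, variance model, slide, the deposited values and leaving out each pair.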

Additional observations from a re-analysis of the deposited data

Results flagged for a closer look

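The Western pool of pair 4 had a Mup5 level of 16.76 (log2 intensity), apart from the other 3 Western pools, which lay at 17.64 to 17.77. The gap to the nearest pool was 0.877 of the range of the 4 Western pools, above Dixon's 95% critical value. It was 1 of 30 sets of 4 values examined (pair ratios and both diets' levels of 10 genes), and chance flags about 1 in 20. Without pair 4 the fitted Mup5 ratio was -0.30 and the plain mean -0.28, against 0.069 over all 4 pairs.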

How the results depend on the processing

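Over 10 other settings, 0 to 8 features passed an adjusted p of 0.05 (limma, Benjamini-Hochberg): 2 with median centring in place of loess, 4 with slide as a block at the array level, 8 in the authors' deposited value table and 0 otherwise, as when any pair was left out. At an unadjusted p under 0.05 the count ran from 6 (variance trend with robust fit) to 935 (no filter on dim probes), with 182 in the deposited table, 201 with median centring and 254 with no dye term, against 510. No member passed adjustment in any of them. Members past the unadjusted threshold numbered 0 with the trend and robust fit, where limma gave Bcl6 an unadjusted p of 0.0507 (over all 10 settings its adjusted p was 0.23 or more), and 1 to 4 when a pair was left out, while 363 to 1309 of all features then passed. Members with 1 sign in all pairs numbered 2 with the mean over probes and 1 to 4 with a pair left out, where 16.9% to 18.2% of all features did. Bcl6 kept its sign in these alternatives, at 1.23 to 1.31 in the 10 settings and 0.71 to 1.82 with a pair left out. The ratio of Ghr reversed to 0.0044 with the mean over probes. In the fit with a dye term, which on 3 pairs gives the pair left alone in its orientation as much weight as the other 2 together, leaving out 1 pair reversed Ghr (0.079 without pair 1, 0.050 without pair 2; range -0.13 to 0.079), Igf1 (0.026 without pair 1; -0.13 to 0.026), Socs2 (0.027 without pair 1, 0.51 without pair 3; -0.84 to 0.51), Elovl3 (0.32 without pair 3; -1.18 to 0.32), Mup3 (0.22 without pair 1; -0.31 to 0.22), Mup5 (-0.022 without pair 3, -0.30 without pair 4; -0.30 to 0.44) and Mup20 (0.18 without pair 1, 0.046 without pair 3; -0.38 to 0.18). Igfals (0.054 to 0.066) and Stat5b (-0.27 to -0.0013) kept their signs in that fit. Plain means of the 3 remaining pairs, an alternative chosen after seeing the data, reversed Igfals (-0.0019 without pair 2, -0.010 without pair 3), Stat5b (0.027 without pair 3), Ghr (0.11 without pair 1), Igf1 (0.016 without pair 1), Socs2 (0.66 without pair 3), Elovl3 (0.13 without pair 3), Mup3 (0.12 without pair 1), Mup5 (-0.28 without pair 4) and Mup20 (0.13 without pair 3). They kept the sign of the 4-pair mean for Ghr without pair 2 (-0.040), Socs2 without pair 1 (-0.42), Mup20 without pair 1 (-0.051) and Mup5 without pair 3 (0.11), where the fit reversed it. Bcl6 stayed above 0, at 0.77 to 1.59. The cause was not tested. The analysis is paired throughout, since every ratio sets the pools of 1 array against each other.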
